A study of Mus musculus with 27 samples.

Results

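Contacts of the *Nkx3-2* enhancers with the far parts of their own chromosome were read from 44552 *BglII* fragments of mouse chromosome 5, out of 949826 fragments in the genome and 51862 on that chromosome. A fragment was taken when its midpoint lay below 31050000 or above 51844315 on mm10, which leaves at least 10 Mb to the viewpoints. Of these fragments, 9878 lay on the centromeric side and 34674 on the telomeric side. The study followed Longshanks mice, bred for longer tibiae, and asked whether 3 candidate limb enhancers contact *Nkx3-2*, a gene in a region that responded to the selection. The template was made at E14.5 from forelimb buds, hindlimb buds and liver of mice labelled C57BL/6Ncrl, for which the labels name no allele and no treatment, with 5 to 6 embryos pooled per replicate. Each of 3 replicates per tissue was amplified from the viewpoints N1, N2 and N3, which gave 27 libraries, 9 for each viewpoint. The N2 viewpoint lies downstream of the N2 enhancer itself. The libraries of a tissue and replicate came from 1 template amplified with a pool of viewpoint primers, so the viewpoints are not independent samples, and a library of DNA ligation products holds no marker that could test its tissue label.

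4C-Seq, which the paper calls multiplexed chromosome conformation capture, starts from DNA that lay together in the nucleus. This DNA is ligated after a restriction digest, and PCR from a chosen viewpoint amplifies its ligation partners. Contacts within a chromosome usually become rarer with distance, yet a chromosome tends to occupy a territory of its own, so that even remote parts of it meet more often than parts of other chromosomes do. Over many megabases, gene-rich and GC-rich stretches tend to meet other such stretches, and gene-poor ones meet their own kind. *Nkx3-2* encodes a homeodomain transcription factor that keeps chondrocytes from maturing and takes part in the patterning of the skeleton.

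The nested primers that define the viewpoints are shown because the last bases of each turned up inside distant fragments that gave reads in all 9 libraries of a viewpoint. All 3 match the plus strand of chromosome 5 in full, N1 at chr5:41165733-41165752, N2 at chr5:41403985-41404010 and N3 at chr5:41535790-41535813 (mm10). Capitals mark the last 8 bases, the 3′ end from which the polymerase extends.
N1 primer: cttgagtttgccACCCAAAC
N2 primer: gcgatctgaagaactaagAAGCTTAG
N3 primer: gttgtaagtagcagacACAGAGAT

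The sites below lie inside such fragments and match the 3′ end of the viewpoint's own primer. For N1 and N2 they are the sites with matches of at least 12 bases, and for N3 the 3 with most reads on their fragment among those with at least 13. Each is a stretch of 30 bases of the mm10 reference, 5′ to 3′ on the strand of the match, with the matching bases in capitals.
N1, chr5:123298506-123298535, plus strand, 15 bases matched: aaaacatgtgctatcGTTTGCCACCCAAAC
N1, chr5:122639392-122639421, minus strand, 12 bases matched: ccctggttctagcacgtgTGCCACCCAAAC
N2, chr5:138795159-138795188, plus strand, 13 bases matched: gctggccttggtcagctCTAAGAAGCTTAG
N3, chr5:120824377-120824406, minus strand, 14 bases matched: attctcatacacaaatGCAGACACAGAGAT
N3, chr5:99240465-99240494, plus strand, 14 bases matched: tctaccttaagtgtggGCAGACACAGAGAT
N3, chr5:102256669-102256698, minus strand, 13 bases matched: gcagtggtgaagatggaCAGACACAGAGAT
The first site overlaps an exon of *Wdr66*, and the N2 site lies in an intron of *Fam20c*. The N3 site at 99 Mb lies in an intron of *Rasgef1b*, and the others are intergenic in GENCODE vM21, nearest to *P2rx7*, *Oas1c* and *Wdfy3*.

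Depth differed widely between the viewpoints. N1 libraries held from 2984 to 20134 reads, N2 libraries from 165471 to 570405 and N3 libraries from 924023 to 2376866. The reads on distant chromosome 5 fragments ran from 322 to 1523 in N1 libraries, from 2194 to 9786 in N2 libraries and from 42949 to 122714 in N3 libraries. Reads of PCR products without molecular identifiers are not independent molecules, so the share of fragments with at least 1 read was the main measure, and intervals and floors below cover counting error only. Neighbouring fragments often held equal counts. Between 58.3 and 95.3% of the distant fragments with reads in an N1 library had a neighbour of the same count. In N3 this was 48.6, 33.1 and 56.3% in liver replicates 1, 2 and 3, against 20.6 to 34.3% in limb libraries. In N2 it was 77.7, 51.2 and 85.6% in the liver replicates, against 35.5 to 62.4% in limb.

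Liver replicate 3 stood apart from the other libraries in all 3 viewpoints. Reads fell on 469 distant fragments in its N1 library (1.05%, 95% Wilson interval 0.962 to 1.15%), on 1424 in its N2 library (3.20%, 3.04 to 3.36%) and on 2489 in its N3 library (5.59%, 5.38 to 5.80%). The next highest library of each viewpoint was liver replicate 1, with 194, 792 and 1544 such fragments. Results that rest on this template are given with and without it.

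Most distant fragments were never seen. Of the 44552, 8985 (20.2%) had a read in at least 1 library, 5694 of them in exactly 1 library, and 35567 (79.8%) had none. Those with reads were longer, with a median of 3.18 kb against 1.65 kb. In a single library, 0 reads on every distant fragment would still have allowed a share of up to 0.00673%.

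From each of the viewpoints, a larger share of fragments had reads on distant chromosome 5 than on the other autosomes. The share of fragments with reads was compared as a log2 ratio to the share on the other 18 autosomes of the same library, with 0.5 added to each count. The ratio averaged 0.61 ± 0.54 (SD, n = 9) for N1, with 8 of 9 libraries above 0 (exact permutation of signs over libraries, p = 0.0078 two-sided, Benjamini-Hochberg adjusted p = 0.0078). For N2 it averaged 0.36 ± 0.38 (SD, n = 9), above 0 in 9 of 9 libraries (exact test, p = 0.0039, adjusted p = 0.0059). For N3 it averaged 0.21 ± 0.13 (SD, n = 9), again above 0 in 9 of 9 (exact test, p = 0.0039, adjusted p = 0.0059), and 0.0039 is the smallest p that 9 libraries allow. Without liver replicate 3 the means were 0.47, 0.24 and 0.17 (exact tests, adjusted p = 0.016, 0.012 and 0.012). The test asks whether the ratio held its sign over libraries that all share the same fragments. The ratio takes no account of base composition or fragment length, and their part in it was not tested.

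Among the 19 autosomes, with chromosome 5 entered by its distant fragments, chromosome 5 ranked first in 4 of 9 libraries for every viewpoint. Its median rank was 2 for each, and its lowest ranks were 10, 9 and 7 for N1, N2 and N3. In the N3 hindlimb libraries distant chromosome 5 stood at 2.20, 1.76 and 2.05% against medians of 2.03, 1.65 and 1.83% for the other autosomes. In liver replicate 3 it stood further apart, at 1.05% against 0.395% for the highest of the other autosomes in N1 and at 3.20% against 1.53% in N2.

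Reads gave another picture than fragments with reads. In reads per fragment, distant chromosome 5 lay below the other autosomes for N2, with a mean log2 ratio of −1.75 (exact sign-flip permutation test, adjusted p = 0.012), and at 0.05 for N3 (exact test, adjusted p = 0.53). For N1 the ratio of reads was 0.63 (exact test, adjusted p = 0.029). N2 thus had more distant fragments with reads, yet fewer reads per fragment, than the other autosomes.

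**Figure D1:**
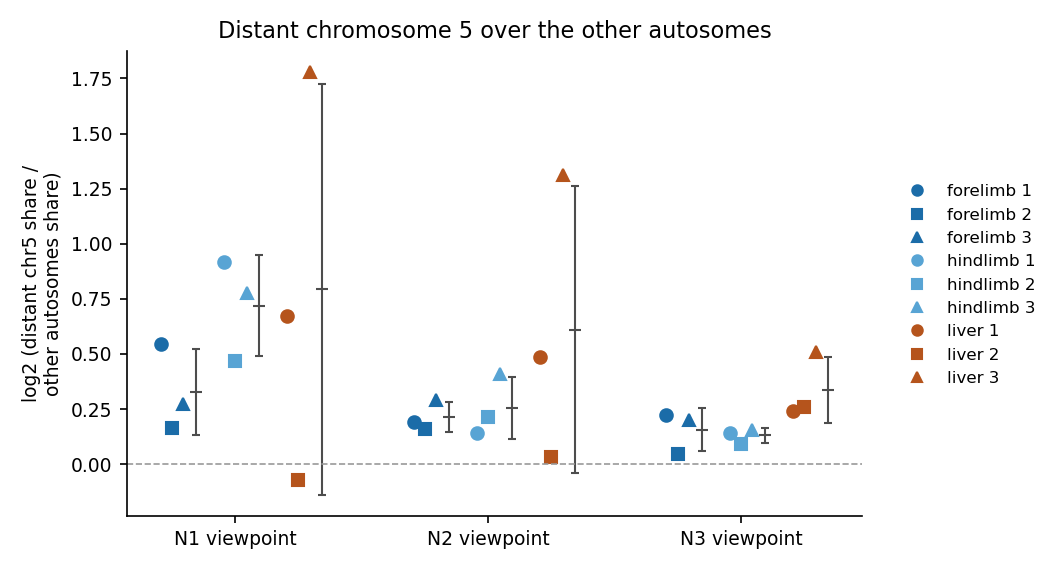
Each point is 1 library, coloured by tissue and shaped by replicate, and shows log2 of the share of distant chromosome 5 fragments with reads over the share on the other autosomes; the bars beside the points are the mean ± SD of 3 libraries. Liver replicate 3 is the highest point of each viewpoint, at 1.78, 1.31 and 0.51, and 1 point, liver replicate 2 of N1, lies below 0.

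Past 10 Mb, the N2 and N3 contacts did not fall steadily with distance in most libraries. Their share of fragments with reads was lowest at 20 to 40 Mb and higher again over 80 Mb. Leaving out liver replicate 3, the median share for N2 was 0.701% at 10 to 20 Mb, 0.493% at 20 to 40 Mb, 0.594% at 40 to 80 Mb and 0.736% over 80 Mb. For N3 the medians were 2.24, 1.73, 2.10 and 2.68%. For N1, with far fewer reads, they were 0.194, 0.178, 0.165 and 0.201%.

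The step from 10–20 to 20–40 Mb was downward in 9 of 9 N2 libraries, in 9 of 9 N3 libraries and in 6 of 9 N1 libraries, with median ratios of 1.41, 1.33 and 1.27. From 20–40 Mb to over 80 Mb the share was higher in 8 of 9 libraries for N2 and N3 and in 5 of 9 for N1. These steps were picked after the values were seen and carry no test. The GC content of the same bands was also lowest at 20–40 Mb and highest over 80 Mb. For N2 it was 41.2, 39.8, 43.1 and 46.4% from the nearest band to the farthest, while the median fragment length stayed between 1.90 and 1.94 kb. The order differed at 10–20 Mb, where the share lay above that at 40–80 Mb and the GC content below it. The part of base composition in the shape was not tested.

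In liver replicate 3, contacts fell with distance up to 80 Mb and then levelled. Its N2 library had reads on 7.25% of fragments at 10 to 20 Mb, 3.63% at 20 to 40 Mb, 1.84% at 40 to 80 Mb and 1.87% over 80 Mb. In its N1 library the shares were 2.52, 1.41, 0.509 and 0.393%, and in its N3 library 8.68, 5.86, 4.52 and 4.70%. In the N2 library of liver replicate 1, the share fell from 2.86 to 1.44% over the first bands and stood at 1.81% over 80 Mb. The distant signal of liver replicate 3 was therefore highest close to the viewpoints.

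**Figure D2:**
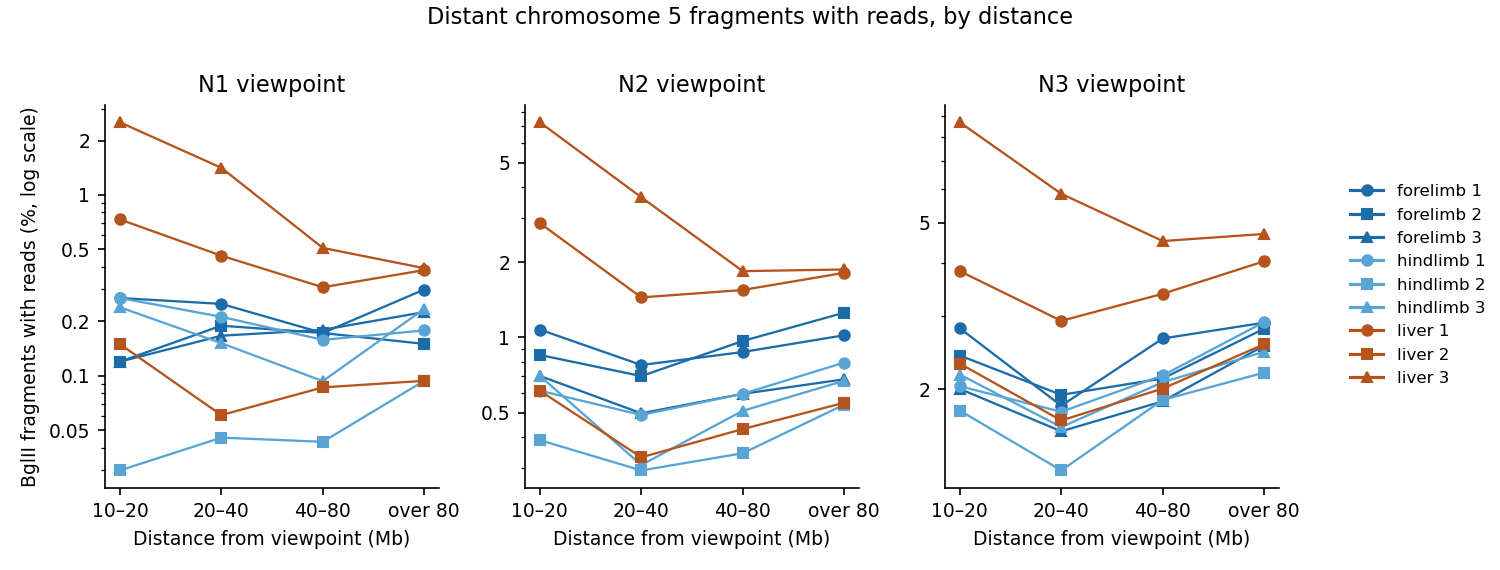
Lines join the share of fragments with reads of 1 library (in %, log axis) across 4 distance bands from the viewpoint, with colours for tissue and symbols for replicate. The liver replicate 3 line falls from 7.25 to 1.87% for N2, while the N2 and N3 limb libraries dip at 20 to 40 Mb and rise again.

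The test of the decay set fragments 11 to 30 Mb away, on both sides, against those over 60 Mb away. For N1, N2 and N3 the log2 ratios were 0.28 ± 0.91, −0.16 ± 0.71 and −0.37 ± 0.35 (SD, n = 9; exact sign-flip permutation test, p = 0.48, 0.53 and 0.031, adjusted p = 0.53, 0.53 and 0.094). They were above 0 in 5, 2 and 1 of 9 libraries. None passed at an adjusted p of 0.05, so over this span the nearer fragments were not shown to be contacted more often than the farther ones. Without liver replicate 3, at 2.34, 1.51 and 0.52, the N2 mean was −0.37 (exact test, adjusted p = 0.035) and the N3 mean −0.48 (adjusted p = 0.023), both below 0.

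The difference between limb and liver in this ratio did not pass after adjustment. The limb mean was −0.48 ± 0.31 (SD, n = 6) for N2 against 0.48 ± 0.92 (SD, n = 3) in liver, and for N3 −0.51 ± 0.10 against −0.10 ± 0.54 (exact permutation test, p = 0.036 and adjusted p = 0.054 for both). For N1 the limb and liver means were −0.01 ± 0.54 and 0.87 ± 1.35 (exact permutation test, adjusted p = 0.19). The comparison was added after the values were seen. Without liver replicate 3 the differences were −0.15, −0.45 and −0.09 (exact permutation test, adjusted p = 0.71, 0.38 and 0.38).

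Chromosome 5 extends 39.67 to 40.04 Mb from the viewpoints towards the centromere and 110.2 to 110.6 Mb towards the telomere. At matched distances of 11 to 38 Mb, the log2 ratios of the centromeric to the telomeric side were 0.30 ± 0.92, 0.20 ± 0.21 and −0.11 ± 0.13 for N1, N2 and N3 (SD, n = 9). The centromeric side was higher in 5, 7 and 2 of 9 libraries (exact sign-flip permutation test, adjusted p = 0.34, 0.059 and 0.059). Without liver replicate 3, N2 stood at 0.23 and N3 at −0.14, with an adjusted p of 0.023 for both in the exact test. By fragments with reads, these neighbouring viewpoints thus leaned to opposite sides. By reads per fragment, with all libraries, both leaned to the centromeric side. The difference between them was not tested.

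Limb and liver were then compared over all distant fragments, relative to the other autosomes. For N3, the limb libraries lay between 0.05 and 0.22 and the liver libraries between 0.24 and 0.51, without overlap. The limb mean was 0.14 ± 0.07 (SD, n = 6) and the liver mean 0.34 ± 0.15 (SD, n = 3), a difference of −0.19 (exact permutation test, two-sided, p = 0.012, the smallest that 84 arrangements allow, adjusted p = 0.036). The call was lost in 13 of 17 alternatives, among them at least 2 reads per fragment (exact permutation, adjusted p = 0.071). The 13 include the 9 fits with 1 library left out and the replicate block (exact permutation, adjusted p = 0.11). In these, the arrangements allow no adjusted p under 0.05 when no other viewpoint passes, so they say nothing about its stability. Without liver replicate 3 the difference was −0.11 (exact test, p = 0.071, adjusted p = 0.21), where the smallest p that the arrangements allow is 0.036, or 0.11 adjusted when no other viewpoint passes, and the smallest liver value, 0.242, lay just above the highest limb value, 0.222. For N2 the limb mean was 0.23 ± 0.10 and the liver mean 0.61 ± 0.65, and for N1 0.52 ± 0.29 and 0.79 ± 0.93 (exact permutation test, adjusted p = 0.21 and 0.54). The N2 difference went from −0.38 to −0.03 without liver replicate 3, and the N1 difference from −0.27 to 0.22. In N1 and N2, liver replicate 2 was the lowest library and liver replicate 3 the highest, so the liver libraries enclosed all limb libraries.

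As a share of all reads, distant chromosome 5 fragments took 6.82 ± 2.42% in limb and 7.92 ± 2.94% in liver for N1. They took 1.37 ± 0.35% and 2.03 ± 1.28% for N2, and 4.41 ± 0.78% and 4.40 ± 0.69% for N3 (SD, n = 6 limb and 3 liver libraries). No difference passed (exact permutation test, adjusted p = 0.82, 0.79 and 0.98).

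By 5-Mb bin, the reads gave no difference between limb and liver. Of 24, 28 and 28 distant bins tested for N1, N2 and N3 with edgeR's quasi-likelihood test, 0 passed an adjusted p of 0.05. Over the genome, 0% of 358, 523 and 530 bins were called. At an unadjusted p under 0.05 there were 3, 5 and 1 distant bins, and DESeq2 also called 0 of the distant bins. Limb was higher in 5 of 24, 10 of 28 and 10 of 28. The median log2 difference, limb over liver, was −1.05, −0.53 and −0.10 over these bins, beside −0.41, 0.00 and 0.05 over all bins tested. Simulated 8-fold changes at the spread of the real bins were recovered in 7.5, 72.5 and 100% of cases for N1, N2 and N3, so the N1 test could miss most changes of this size.

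When fragments with reads were counted per bin in place of reads, 1 distant bin was called, and it was the same bin for N2 and N3, from 25 to 30 Mb. It holds *Shh*, the morphogen that patterns the limb along its anterior-posterior axis, and *Lmbr1*, the host gene of a *Shh* limb enhancer. For N3, 34 to 48 of its 1862 fragments had reads in limb libraries (median 43), against 106, 55 and 219 in the liver replicates. The liver libraries all lay above the limb libraries, and replicate 2 only just so. In N3 this order was found in 2 of 28 distant bins, this one included, and the reverse order in 0. The log2 difference, limb over liver, was −0.98 ± 0.16 (SE; edgeR adjusted p = 0.00024), and 0.192% of 521 bins were called over the genome. For N2, 6 to 25 fragments had reads in limb (median 12), against 72, 14 and 160 in liver, where replicate 2 lay within the limb range. The log2 difference was −1.69 ± 0.39 (SE; edgeR adjusted p = 0.045, 0.317% of 315 bins called). For N1 too few fragments had reads for a test over bins. Without liver replicate 3, N3 stood at −0.67 ± 0.15 (edgeR adjusted p = 0.0063) and N2 at −1.04 ± 0.30 (edgeR adjusted p = 0.19). Neither these fits nor the windows below were repeated with neighbours of equal count taken once.

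Inside this bin the higher liver values were spread over its length. In the 5 windows of 1 Mb, N3 liver replicates 1 and 3 were above all limb libraries in 5 of 5, and replicate 2 in 3 of 5. At 27 to 28 Mb, reads fell on 17.4% of fragments in liver replicate 3, 5.62% in replicate 1 and 3.65% in replicate 2, against 1.12 to 3.09% in limb. In N2 the same window had 10.96, 3.37 and 1.12% in liver replicates 3, 1 and 2 and 0.281 to 3.09% in limb. N1 showed 3 of 5 windows above all limb libraries for liver replicate 1, 0 of 5 for replicate 2 and 5 of 5 for replicate 3. Taken relative to all distant fragments of the same library, which sets aside how many were seen in all, the bin stood at 1.05 ± 0.08 (SD, n = 6) in N3 limb libraries and 1.72 ± 0.35 (SD, n = 3) in liver. For N2 it stood at 1.08 ± 0.32 and 2.17 ± 0.52, and for N1 at 2.15 ± 0.57 and 2.41 ± 1.19. The bin at a like distance on the telomeric side, from 51.84 to 55 Mb, had relative shares of 1.21 ± 0.98 in limb and 3.58 ± 0.99 in liver for N1, of 1.61 ± 0.45 and 2.42 ± 0.70 for N2, and of 1.72 ± 0.18 and 1.60 ± 0.56 for N3. The liver means were thus higher there too in N1 and N2. In N2 the log2 difference, limb over liver, was −1.31 ± 0.34 (SE; edgeR adjusted p = 0.093). Without liver replicate 3 this N2 difference was −0.44 ± 0.32 (SE; edgeR adjusted p = 0.76). In N3, limb libraries had 3.01 to 4.28% of fragments with reads and liver replicates 1, 2 and 3 had 4.18, 2.82 and 12.5%. The difference between these bins was not tested.

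**Figure D3:**
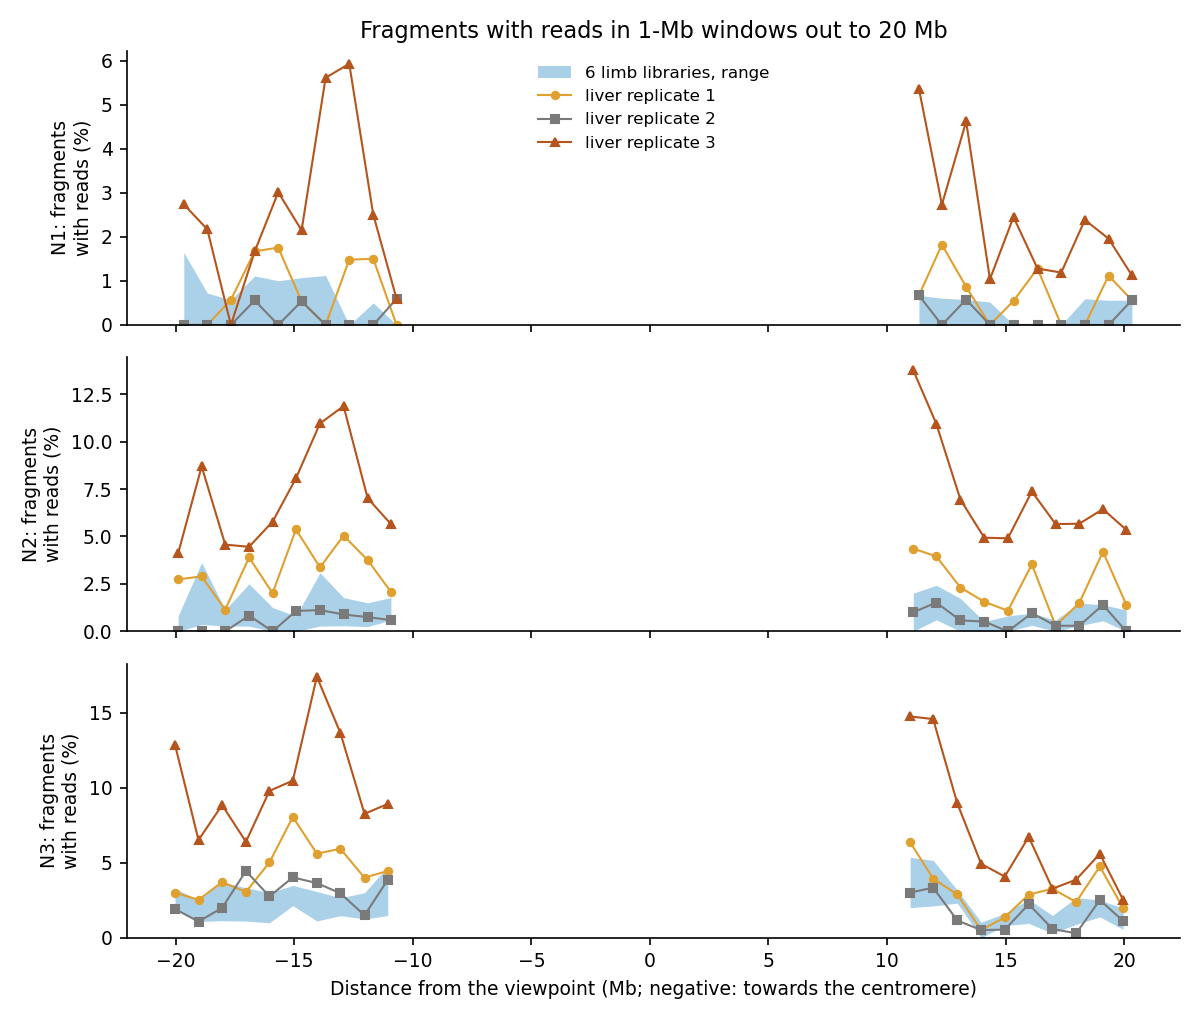
The share of fragments with reads (in %) in 1-Mb windows of at least 100 fragments is plotted against signed distance from the viewpoint, with the range of 6 limb libraries as a band and each liver library as a line. Liver replicate 3 reaches 17.4% in N3 at 27 to 28 Mb, and liver replicates 1 and 3 lie above the N3 limb band in all 5 windows from 25 to 30 Mb.

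Some 5-Mb bins were contacted above the mean of distant chromosome 5 from several viewpoints. The share of fragments with reads in a bin was divided by the share over all distant fragments of the library, and averaged over 9 libraries. Of 28 bins, 13 lay above 1 for N1 (46.4%), 11 for N2 (39.3%) and 15 for N3 (53.6%). Above 1 in at least 2 viewpoints were 14 bins (50%), and 6 were above 1 in all 3. With 39.3 to 53.6% of bins above 1 in single viewpoints, unrelated viewpoints would share bins too, and an excess over that was not tested.

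Of these 6 bins, those from 20 to 30 Mb and from 50 to 55 Mb lay near the viewpoints, and those from 110 to 120 Mb and from 140 to 145 Mb lay far towards the telomere. The bin from 50 to 55 Mb, of which the part past 51.84 Mb was used, had the highest mean over viewpoints, 1.85, with 2.00 ± 1.5 (SD, n = 9) for N1. For N2 and N3 it had 1.88 ± 0.64 and 1.68 ± 0.32. It was above 1 in 7, 8 and 9 of 9 libraries. The 25–30 Mb bin stood at 2.24 ± 0.76, 1.44 ± 0.65 and 1.27 ± 0.38, above 1 in 9, 8 and 8 libraries. The 20–25 Mb bin was nearer the mean, at 1.03, 1.15 and 1.13. Far from the viewpoints, the 110–115 Mb bin stood at 1.30 ± 0.94, 1.31 ± 0.40 and 1.94 ± 0.35, above 1 in 5, 7 and 9 libraries. The 115–120 Mb bin, which holds the limb genes *Tbx3* and *Tbx5*, had 1.17 ± 1.00, 1.48 ± 0.49 and 1.39 ± 0.12, and the 140–145 Mb bin 1.23, 1.24 and 1.26. The N1 values overlapped 1 within their SD in all of these bins but the 25–30 Mb bin.

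The bins of lowest mean over viewpoints were below 1 in all 3. The 80–85 Mb bin, which holds 3 protein-coding genes, had relative shares of 0.35, 0.52 and 0.61. The 55–60 Mb bin, with 1 such gene, had 0.40, 0.78 and 0.55. It adjoins the bin of highest mean, and between these neighbours the N3 value went from 1.68 to 0.55.

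Across the 28 bins, the relative share went with GC content at a Spearman's rho of 0.31, 0.74 and 0.80 in N1, N2 and N3, and with genes per Mb at 0.02, 0.44 and 0.47. With distance, rho was −0.10, −0.03 and 0.22. Between viewpoints rho was 0.49 for N1 and N2, 0.48 for N1 and N3, and 0.74 for N2 and N3. These are descriptions over 28 bins that share libraries, depth and base composition. The 110–120 Mb bins had GC contents of 49.1 and 48.0%, the highest and the fourth highest of the 28, and the 55–60 and 80–85 Mb bins had 36.6 and 36.5%, the lowest.

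By reads, fewer bins were shared. Above the mean stood 8, 11 and 7 bins in N1, N2 and N3 (28.6, 39.3 and 25%). In at least 2 viewpoints, 8 bins (28.6%) did so. The 110–115 and 130–135 Mb bins were above it in all 3. In several bins the reads rested mainly on 1 fragment. In the 30–31 Mb bin, with relative reads of 6.20 for N2 and 7.91 for N3, 1 fragment carried 85.8 and 95.7% of the reads. In the 130–135 Mb bin of N3, at 5.80, 1 fragment carried 90.8%.

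**Figure D4:**
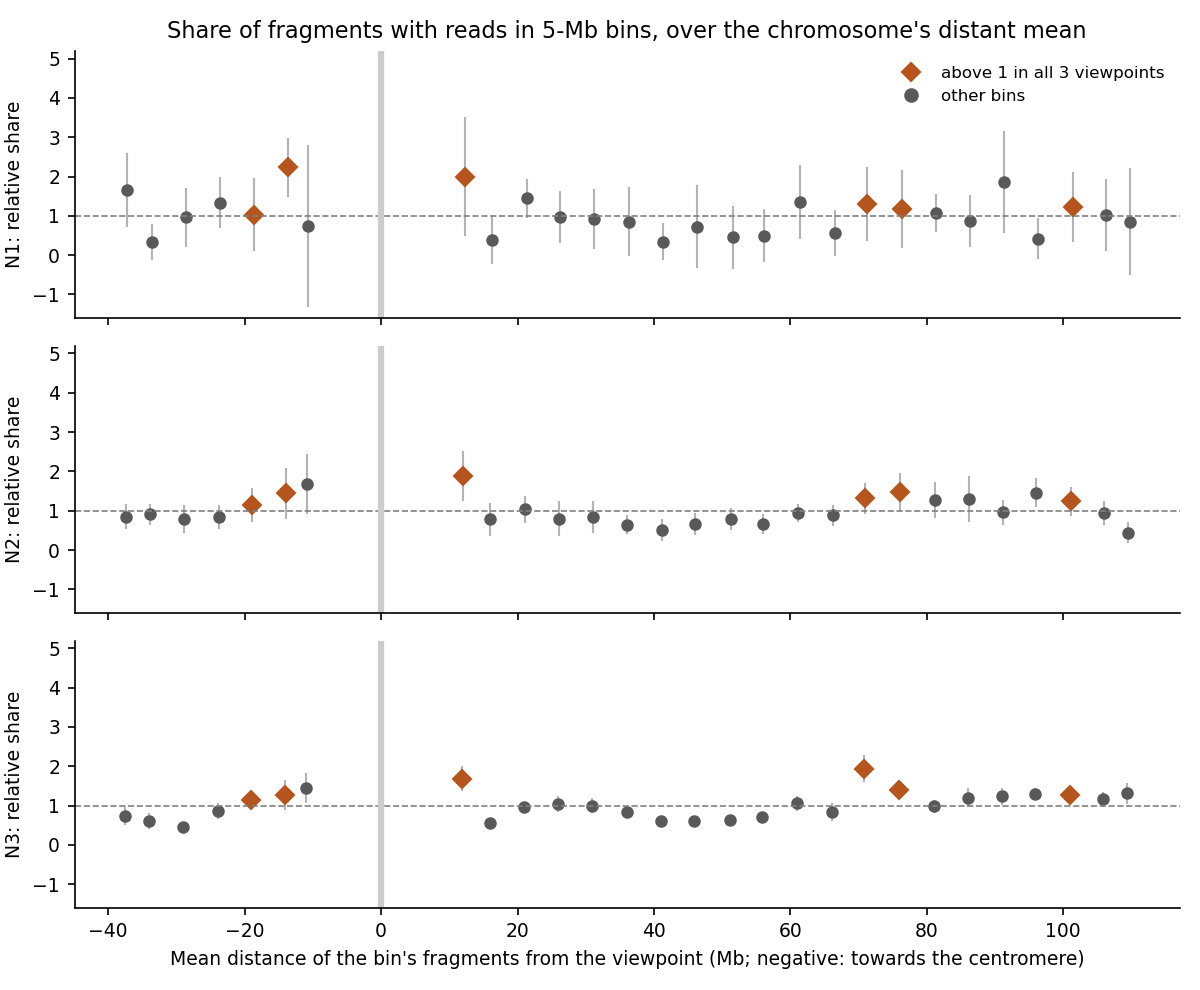
Points show the share of fragments with reads in each of 28 bins relative to the mean of distant chromosome 5 (dashed line at 1), against signed distance from the viewpoint (grey bar), as the mean ± SD of 9 libraries. Diamonds mark the 6 bins above 1 in all 3 viewpoints, 3 of them near the viewpoints and 3 far towards the telomere.

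Fragments that returned in every library of a viewpoint carried much of the distant signal. Reads in all 9 libraries were found for 2 distant fragments in N1, 26 in N2 and 102 in N3, and no fragment was in all 9 of both N1 and another viewpoint. Between N2 and N3, 1 was shared. These fragments held 14.1, 43.2 and 81.8% of the reads on distant chromosome 5 in N1, N2 and N3. Single N1 libraries ran from 1.97 to 63.4%, N2 libraries from 23.8 to 69.5% and N3 libraries from 77.3 to 86.3%. The other autosomes had such fragments too, 6, 440 and 1678. On chromosome 5, 0.00449, 0.0584 and 0.229% of distant fragments were of this kind, against 0.000753, 0.0552 and 0.211% of fragments on the other autosomes.

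The 3′ end of the primer was found in a larger share of them than of fragments without reads, which is a description with no test. Fragments were searched on both strands for the longest run that ended with the last base of the primer. A run of at least 10 bases was found in both N1 fragments, against 0.988% of 4253 fragments of 4.04 to 5.59 kb without N1 reads. For N3 it was found in 17 of 102 (16.7%), against 3.91% of 8858 fragments of 3.40 to 8.67 kb. For N2 it was found in 2 of 26 (7.69%), against 0.931% of 9018 fragments of 3.24 to 6.91 kb. These ranges are the middle part of the lengths of the recurrent fragments, which were themselves counted at every length. Both N1 fragments lay outside their range, so the lengths were not matched. Over all distant fragments, 0.631, 0.653 and 2.33% held such a run for N1, N2 and N3. A match is a description of the letters. Most of the N2 and N3 fragments had none of this length, and whether priming at such sites gave the reads was not tested.

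Single fragments held large shares of the N3 reads. The fragment at chr5:134221541-134223108, over *Gtf2ird2* and *Ncf1*, held 20.2% of all N3 reads on distant chromosome 5, between 7272 and 29552 per library, and at most 1 read in any library of N1 or N2. The fragment of the first N3 site shown above, at chr5:120818330-120825089, held 6.18% of these reads, from 1715 to 8155 per library. It had at most 3 reads in any N1 or N2 library, so that both fragments were prominent in N3 libraries and near 0 in the others.

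Other fragments were seen in more libraries, with far fewer reads. The fragment at chr5:138794044-138800522 in *Fam20c*, which encodes a secreted kinase that phosphorylates proteins of bone and tooth matrix, had reads in 18 libraries. These were all 9 of N2 (9 to 271 reads, median 85), all 9 of N3 (1 to 14, median 5) and no N1 library, and it holds the N2 site shown above. The intergenic fragment at chr5:122635884-122642248, nearest to *P2rx7*, was in 16 libraries, with 3 to 159 reads in N1 (median 59), and holds the second N1 site. It made up 8.31% of all distant N1 reads, and the fragment of the first N1 site 5.75%. The fragments at chr5:24350170-24355588 in *Kcnh2*, a cardiac potassium channel gene, and at chr5:130846509-130854546 in *Caln1* were in all N2 libraries, with 4 to 160 and 13 to 188 reads, and in 15 and 13 libraries in all. The intergenic fragment at chr5:133797708-133805198, was in 13 libraries with 42 reads altogether, 7 of them N1 libraries, and holds a 15-base match to the N1 primer end.

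**Figure D5:**
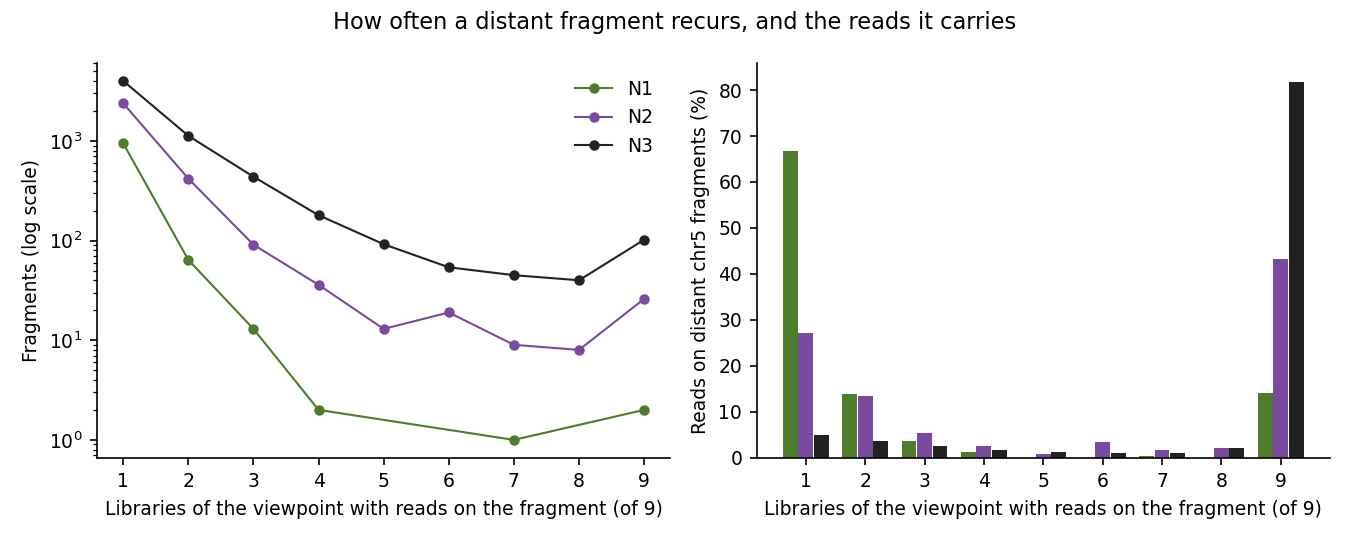
Left, the number of distant fragments (log axis) by how many of the 9 libraries of a viewpoint had reads on them, with counts of 0 not drawn; right, the share of all distant chromosome 5 reads they carried (in %). In N3 the 102 fragments seen in all 9 libraries carried 81.8% of reads, while in N1 the 947 seen in 1 library carried 66.7%.

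Leaving out these recurrent fragments changed little where fragments were counted, and more where reads were. The log2 ratio to the other autosomes was then 0.58, 0.38 and 0.21 for N1, N2 and N3 (exact sign-flip permutation test, adjusted p = 0.012, 0.0059 and 0.0059). The number of bins above the mean by reads in at least 2 viewpoints rose to 13, from 8.

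Distant fragments were seldom shared between viewpoints. Of the fragments with reads in an N1 library, a median of 6.54% also had reads in the N3 library made from the same template, 5.03% in N3 libraries from other templates, and 5.71% in another N1 library. Of the fragments in an N2 library, a median of 6.72% were in the N3 library of the same template and 5.91% in the others, whereas 22.2% were in another N2 library. Of the fragments in an N3 library, 2.35% were in the N2 library of the same template and 29.3% in another N3 library.

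Known limb and liver genes of chromosome 5 were read through windows of 250 kb to either side of their 5′ ends. All 22 genes of a limb and skeleton list and all 18 of a liver list lay more than 10 Mb away, with reads in 11 to 21 and in 9 to 27 libraries. The share of window fragments with reads, relative to all distant fragments, had medians of 1.14, 0.90 and 0.80 for N1, N2 and N3 over the limb list. Over the liver list they were 0.89, 0.76 and 0.84, and over all 1119 protein-coding genes beyond 10 Mb 0.60, 0.94 and 1.02. Neighbouring genes share windows, so the genes of a list are not independent.

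*Shh* lies at chr5:28456815-28467256, 12.7 to 13.1 Mb from the primers, with 187 fragments in its window. No limb library of N1 had a read there, which allows a share of up to 1.60% in each, while liver replicates 1, 2 and 3 had reads on 2, 0 and 8 fragments. For N2, limb libraries had 0 to 2 (median 0) and the liver replicates 6, 0 and 19. For N3, limb libraries had 1 to 3 (median 2) and the liver replicates 7, 4 and 13, so that limb and liver did not overlap. Divided by the share over all distant fragments of the same library, this was 0.46 in limb and 1.12 in liver, and 0.68 ± 0.36 (SD, n = 9) over both. The windows of *En2*, a homeobox gene of the midbrain, of *Lmbr1* and of *Mnx1*, a homeobox gene of motor neurons, lie in the same 5-Mb bin. In N3 they had limb medians of 3.5, 1.5 and 2 fragments and liver counts of 9, 5 and 14, of 6, 3 and 13, and of 8, 3 and 12. Each of these ranges overlapped between limb and liver.

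*Tbx5*, the forelimb transcription factor gene at chr5:119832668-119885219, had relative shares of 1.45 ± 1.06 for N2 and 1.31 ± 0.34 for N3 (SD, n = 9), with 2 to 6 fragments in N3 limb libraries (median 5) and 8, 5 and 12 in liver. Only 1 of 9 N1 libraries had a read there. *Cdk6*, a cell cycle kinase gene 37.8 to 38.2 Mb towards the centromere, had reads in 21 libraries and relative shares of 3.63 ± 4.32, 1.73 ± 1.11 and 0.60 ± 0.46. *Fgf5* and *Pdgfra*, which encode a growth factor of the hair cycle and a receptor of the mesenchyme, were in 18 libraries each, with 0.48 ± 0.26 and 1.18 ± 0.31 for N3.

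On the liver list, *Alb*, the serum albumin gene at chr5:90460897-90476602, had a relative share of 3.13 ± 1.40 for N2 (SD, n = 9) but 0.76 ± 0.77 for N3 and 0.89 ± 2.68 for N1. Its N2 window had 2 to 7 fragments with reads in limb (median 3) and 4, 2 and 6 in liver, so the ranges overlapped. *Hpd*, an enzyme gene of tyrosine breakdown at chr5:123171807-123182727, was the only gene of either list with reads in all 27 libraries, and its window holds the first N1 site shown above. *Cyp3a25* and *Cyp3a11*, drug-metabolising cytochromes, stood at 1.02 ± 0.42 and 1.02 ± 0.47 for N3, and *Por*, their electron donor, at 0.79 ± 0.40. Among the genes named, limb and liver ranges were apart in N3 at *Shh* alone. How many of the 1119 protein-coding windows were apart was not counted, and single genes were not tested. Over all distant fragments, N3 liver replicates 1 and 3 already had shares of 3.47 and 5.59%, against at most 2.48% in limb.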

How the data were processed

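The 27 4C-Seq libraries from forelimb buds, hindlimb buds and liver were used, grouped by the sample titles. The titles were followed where the source name of hindlimb replicate 3 gives another replicate number and where the description of the N3 liver libraries names another enhancer. The labels and the methods give different C57BL/6 substrains. Nothing beyond the replicate labels says how the pools of embryos were collected.

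Per the labels and methods, the authors trimmed the reads with cutadapt 1.10, mapped them to mm10 with BWA 0.7.10-r789, removed blacklisted regions and low mapping qualities, and binned the rest into *BglII* fragments. GATK 3.4-0 is also listed in the submitters' processing notes. The deposited counts are whole reads per fragment and library, not normalized, and all values here come from them. The deposited column of counts per kb was not used. The 51861 *BglII* sites that GRCm38.p6 has on chromosome 5 all lie at fragment ends, so its GENCODE vM21 genes were used.

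Values were computed in Python 3.11.15 (numpy 2.4.6, scipy 1.17.1, pandas 2.3.3). Single values were tested with exact permutation tests, two-sided, adjusted over 3 viewpoints by Benjamini-Hochberg. Reads in 5-Mb bins of all chromosomes were tested in R 4.3.3 with the quasi-likelihood test of edgeR 4.0.16 after TMM scaling and filterByExpr, with SE taken as the log2 difference over the root of F, with DESeq2 1.42.0 as an alternative. Both were tested on simulated data. The members, gene lists and tests were chosen with earlier results of these data known. Named were the bins above the mean in all viewpoints, the bins called, the 6 fragments with reads in most libraries, up to 6 genes of each list with reads in at least 9 libraries (those in most libraries first), and *Shh*, *Alb* and *Tbx5*. A gene and a fragment that these rules name are not reported here. Other fragments with many reads and the least contacted bins were named after their values were seen. P-values measure the spread between these samples. Alternatives changed the measure, the read minimum, the denominator, the bins, the scaling and the libraries left out. Leaving out recurrent fragments, the limb and liver comparison of the decay, and liver replicate 3 in the count of fragments per bin were chosen after seeing the data.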

Additional observations from a re-analysis of the deposited data

How the results depend on the processing

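Of 324 values computed under alternatives for 23 results, 275 were labelled the same. A tested value was so labelled when it kept its direction and its side of the threshold. A count of bins was so labelled when it stayed equal or close to the main count. With reads per fragment in place of fragments with reads, the log2 ratio to the other autosomes was −1.75 for N2 and 0.053 for N3, the decay −0.083, −0.99 and −3.04 for N1, N2 and N3, the ratio of the sides 0.68 for N2 and 0.22 for N3, and the limb minus liver difference −0.11 for N3. With at least 2 reads asked of a fragment, the decay was −0.0016 for N1 and −0.54 for N3, and the N3 difference −0.21 (adjusted p = 0.071, exact permutation). With neighbours of equal count taken once, the N3 decay was −0.46, the ratio of the sides 0.24 for N2 and −0.14 for N3, and the N3 difference in percent of reads −0.0269. The N3 decay was −0.44 with the near fragments of the telomeric side alone. The ratio of the sides for N2 was 0.22 without fragments seen in 10 or more libraries. The N3 limb minus liver difference was −0.13 beyond 20 Mb. In percent of reads, it was 3.48 for N2 over chromosome 5 reads. For N3 it was −0.381 over reads outside the near part, −0.311 with capped counts and −0.258 without the fragments in all 9 libraries, an alternative chosen after seeing the data. None of these differences in percent of reads passed. Bins above the mean by reads in at least 2 viewpoints numbered 5 by the median over libraries and 13 without the fragments in all 9 libraries. Counting fragments with reads per bin called 1 bin each for N2 and N3, against 0 by reads. The cause of these changes was not tested.

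Leaving out each library in turn gave a decay of −0.37 to −0.071 for N2 and −0.48 to −0.34 for N3, and a ratio of the sides of 0.16 to 0.24 for N2 and −0.14 to −0.086 for N3. The limb minus liver ratio ran from −0.70 to 0.22 for N1, from −0.67 to −0.03 for N2 and from −0.24 to −0.11 for N3, and the difference in percent of reads from −2.54 to 0.400 for N1, −1.24 to 0.0275 for N2 and −0.270 to 0.398 for N3. Both N1 ends above 0 came without liver replicate 3. The smallest exact permutation p is 0.018 with 1 limb library fewer and 0.036 with 1 liver library fewer, or 0.054 and 0.11 adjusted when the other viewpoints do not pass, so those fits say nothing about the stability of the N3 call.

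Whether the replicate numbers pair the samples is not known. Same-numbered libraries deviated together by r of −0.34 to 0.32 over 28 bins, and such correlations cannot settle whether they shared embryos or a batch. With the replicate block the N3 limb minus liver ratio was −0.19 (exact permutation p = 0.037, the smallest that 27 arrangements allow, adjusted p = 0.11), and no other limb and liver call changed. The few reads on distant fragments limit every N1 value.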
